A study of Homo sapiens with 6 samples.

Results

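The 10 genes described here decide where pyruvate, the end product of glycolysis, goes in a cell. They are the lactate dehydrogenases LDHA and LDHB, the pyruvate dehydrogenase subunit PDHA1, the 4 pyruvate dehydrogenase kinases PDK1 to PDK4, the plasma membrane carriers SLC16A1 and SLC16A3, and the mitochondrial pyruvate carrier subunit MPC1. They were chosen by gene symbol for these roles, with earlier results of these data known. They are 10 of the 56638 symbols in the count tables. All 10 passed the filter on low counts, which left 22452 genes to test.

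The samples were 3 wild-type (WT) and 3 METTL3-knockout (METTL3-KO) samples of HCT116, a human colorectal carcinoma cell line. METTL3 is the main enzyme that writes N6-methyladenosine (m6A) into messenger RNA. The study describes a knockout made with lentiviral CRISPR-Cas9 and puromycin selection, as 1 monoclonal line. If the METTL3-KO samples came from that line, the knockout and the traits of the clone cannot be told apart. The sources used here describe neither a vector-carrying control nor separate cultures for the replicates, so p-values measure the spread between these samples, which may be technical. Total RNA was sequenced as paired ends, and the samples held 20936091 to 30142144 counts on genes.

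Pyruvate has a pair of main fates. Lactate dehydrogenase reduces it to lactate in the cytosol, which monocarboxylate carriers of the SLC16A family export together with a proton. Alternatively the mitochondrial pyruvate carrier brings it across the inner membrane, and the pyruvate dehydrogenase (PDH) complex oxidises it to acetyl-CoA. The PDH kinases phosphorylate the complex and switch it off, and the PDH phosphatases switch it back on. Tumour cells, colorectal carcinoma included, are known for sending much of their pyruvate to lactate even with oxygen present.

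METTL3 itself held 623 to 841 counts in the WT samples and 162 to 219 in those of METTL3-KO cells, so it fell by 2.04 on the log2 scale (SE 0.0906, edgeR adjusted p = 1.59e-07). The deposited tables carry the group names NC and SiM3 in place of WT and METTL3-KO. Names of this form are often given to siRNA knockdowns, whereas the labels give a knockout genotype, and the counts do not settle which was used. The groups are named here as the labels name them. The third replicates stood apart from the other samples of their group. A chi-square comparison of counts gave 2.58 per gene between the first and second WT samples but 23.1 and 23.0 against the third, and 2.34 against 11.2 and 8.32 in the METTL3-KO samples. Each comparison of the 10 genes is therefore also given without the third replicate of both groups. That smaller fit gave an edgeR adjusted p under 0.05 for 4823 genes lower and 4555 higher, against 2959 and 2986 with all samples. Its spread per gene came largely from the trend over all genes (prior degrees of freedom 48.8, residual 2). Its small adjusted p-values are therefore no stronger evidence than those of all samples. The 6 colon epithelial markers were all detected, and their summed level was 5792 to 7181 CPM (counts-per-million, on TMM-scaled libraries) in WT and 8287 to 9241 in METTL3-KO samples, which do not overlap. Most of that sum was KRT8, at 4119 ± 558 CPM in WT and 5290 ± 344 CPM in METTL3-KO samples (SD, n = 3). Of the 6 markers 4 rose, beside 13.3% of all tested genes. EPCAM and KRT18 did not pass the test (log2 fold changes 0.01 and 0.18, edgeR adjusted p = 0.92 and 0.244). Of the other cell types checked, endothelial markers reached at most 1 count in a sample, leukocyte markers at most 14 and fibroblast markers at most 188, with COL1A2 at 0 in every sample. For LUM, another fibroblast marker, the WT samples had 0.393 ± 0.156 CPM and the METTL3-KO samples had 2.23 ± 0.302 CPM (SD, n = 3). CD79A, a B cell marker, was at 0.123 ± 0.0679 CPM in the WT samples and at 0.543 ± 0.128 CPM in the METTL3-KO samples, and LUM and CD79A rose (log2 fold changes 2.46 and 2.05, edgeR adjusted p = 8.12e-05 and 0.0106). The part of these marker differences in the results below was not tested.

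Values per sample are given in CPM, in the order of replicates 1, 2 and 3. Group values are means ± SD of n = 3 samples, and SE is the standard error of the log2 fold change, METTL3-KO against WT. A gene is said to fall or rise where edgeR's quasi-likelihood test gave an adjusted p under 0.05 over all 22452 genes. In bulk RNA, a lower level in every cell and a smaller share of cells with the transcript cannot be told apart.

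Of the 10 genes, 3 fell (LDHA, LDHB and PDK2), 0 rose and 7 did not pass the test. Among all tested genes, 13.2% fell and 13.3% rose, so 26.5% were called in either direction. At an unadjusted p under 0.05, 6 of the 10 were lower and 1 was higher, where 19.1% and 18.4% of all tested genes were. DESeq2 called the same 3 lower and SLC16A3 higher, where it called 2700 of all tested genes lower and 2908 higher. Without the second METTL3-KO sample edgeR called 5 lower, where 1976 of 21989 tested genes were. With a correction for transcript length and GC content it called 5 lower and 1 higher. Over all tested genes that correction gave 3900 lower and 3646 higher, against 2959 and 2986 without it. The WT and METTL3-KO samples did not overlap in CPM for 7 of the 10, with 6 lower (LDHA, LDHB, PDK2, PDK3, PDK4 and SLC16A1) and 1 higher (SLC16A3), beside 20.7% and 20.2% of all tested genes. The median log2 fold change of the 10 genes was -0.33, with a range from -0.61 to 0.20, while the median over all tested genes was -0.02.

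**Figure D1:**
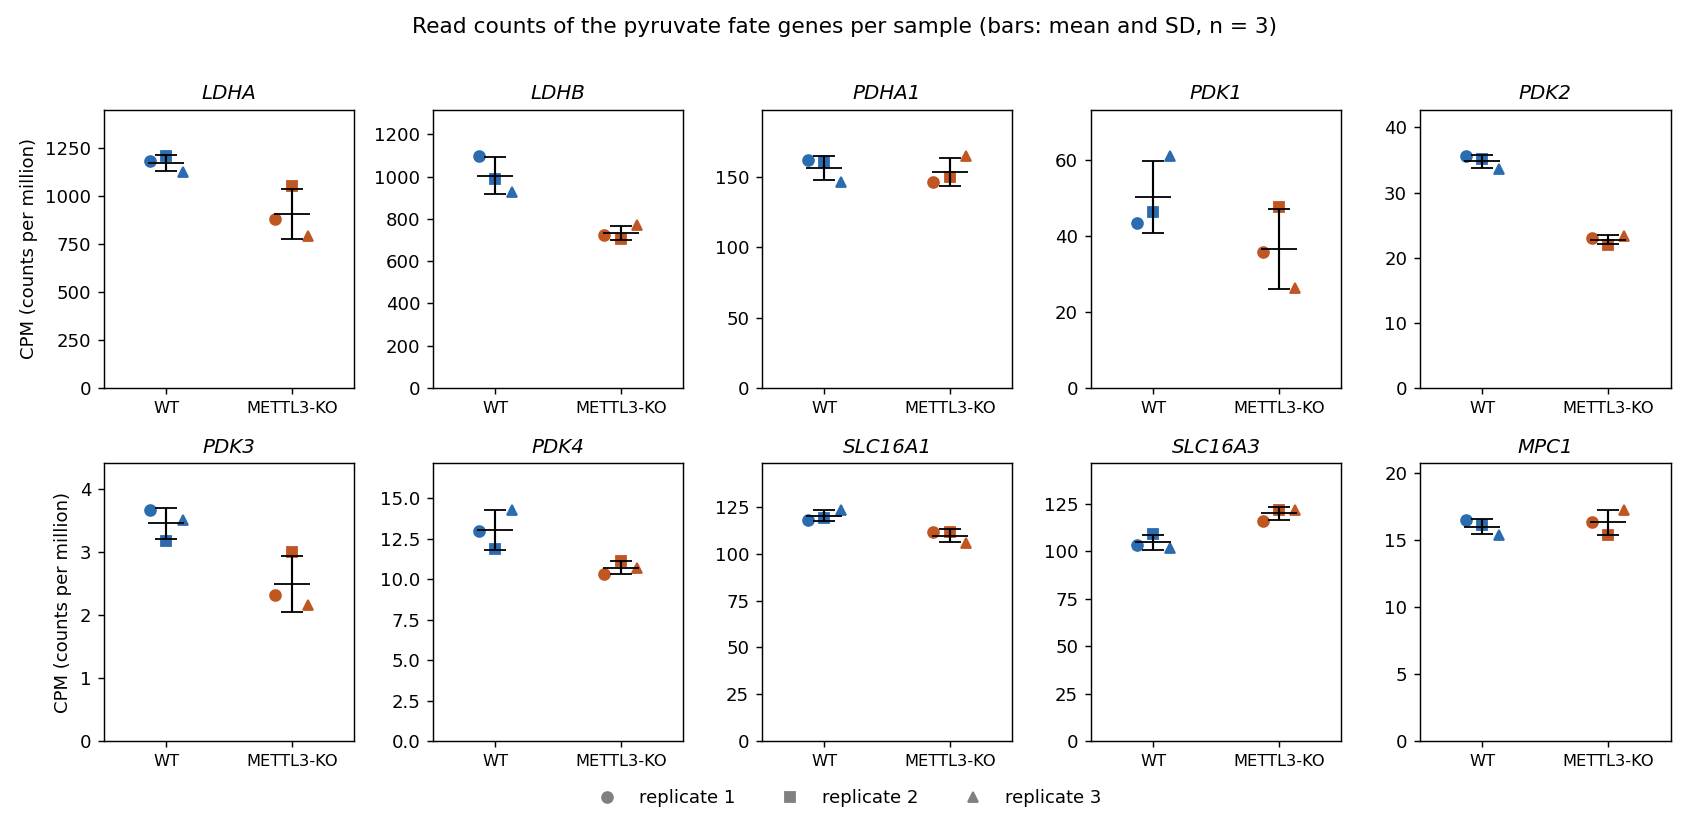
CPM of each gene in each sample, by group, with 1 panel per gene and its own linear axis from 0; point shapes mark replicate numbers, and bars give the mean and SD of 3 samples. The METTL3-KO points of PDK2 lie at 22.0 to 23.4 CPM, all below the WT points at 33.7 to 35.6, while those of PDHA1, PDK1 and MPC1 overlap the WT points.

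The lactate dehydrogenases had the highest level per length of these genes, and both fell. LDHA (chr11:18416107-18429972, plus strand; GRCh37 here and for all gene positions below) encodes the muscle-type subunit, which favours the step from pyruvate to lactate. It was at 1181, 1205 and 1124 CPM in the WT samples and at 880, 1048 and 789 CPM in the METTL3-KO samples, from 18549 to 32437 counts each. The highest METTL3-KO sample was still below the lowest WT sample, but the METTL3-KO samples differed among themselves, 905 ± 131 CPM against 1170 ± 41.8 CPM. The log2 fold change was -0.37 (SE 0.0943, 95% interval -0.58 to -0.16, edgeR adjusted p = 0.0122), a fall by 22.6%. Leaving out 1 sample moved the edgeR adjusted p to 0.0543 without the first WT sample, to 0.063 without the second WT sample and to 0.0663 without the first METTL3-KO sample. Without the third replicate of both groups, the log2 fold change of LDHA was -0.31 (edgeR adjusted p = 3.08e-08, in the smaller fit described above).

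LDHB (chr12:21788276-21910791, minus strand) encodes the heart-type subunit, which favours the reverse step from lactate to pyruvate. Its WT samples were at 1097, 991 and 926 CPM and its METTL3-KO samples at 723, 706 and 772 CPM. The groups did not overlap, and here the WT samples spread more, 1005 ± 86.4 CPM against 734 ± 34.4 CPM. LDHB fell by 0.45 on the log2 scale (SE 0.0773, 95% interval -0.62 to -0.28, edgeR adjusted p = 0.00103). It passed the test in each of the 14 alternative settings, with log2 fold changes from -0.55, without the third replicate of both groups, to -0.39.

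Since both subunits fell, their balance was compared within each sample. The ratio of LDHA to LDHB counts was 1.08, 1.22 and 1.21 in WT and 1.22, 1.48 and 1.02 in METTL3-KO samples. These values overlap, and the mean log2 difference was 0.07 (two-sided exact permutation p = 0.7, 0.7 after adjustment over 4 ratios). The sign turned to -0.07 without the second METTL3-KO sample, and the difference was 0.23 without the third replicate of both groups. Of the 6 genes of the LDH family, 5 were tested and the 2 named above were those that fell, beside 13.2% of all tested genes.

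Copies of both genes were looked up as well, and those of LDHB had no count in any sample. LDHAP4, a processed copy of LDHA, fell with it (log2 fold change -0.32, SE 0.105, edgeR adjusted p = 0.0412), from 27.6 ± 1.31 to 22.2 ± 3.19 CPM. Reads that align to more than 1 place were left out by the authors, so reads shared between the copy and its parent were lost to both. Of 11 pseudogenes and antisense genes of these 10 genes in the tables, 8 had no count in any sample.

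Transcripts of the 10 genes were searched for GGACT, the best-known form of the word that METTL3 methylates, at its A. This is a description of sequence alone, since no methylation was measured in these samples. The word occurs in the canonical transcript of 9 of the 10 genes and of 84.9% of the 17293 tested genes with a transcript. LDHA holds 4 (1.78 per kilobase, above the median of 0.912 over the tested genes) and LDHB, which fell as well, holds 0. The LDHA words are shown because they contrast with their absence in LDHB, with the word in capitals and 10 bases on either side. The first crosses from the third exon of the transcript into the next, the second is at chr11:18425304-18425308 and the third at chr11:18427042-18427046, all in the coding sequence. The last lies in the 3′UTR at chr11:18428943-18428947.
LDHA coding, exon junction: tcttaatgaaGGACTtggcagatga
LDHA coding, exon 6: ccagatttagGGACTgataaagata
LDHA coding, exon 7: ctgggctattGGACTctctgtagca
LDHA 3′UTR: attttaagatGGACTgggaaaaaca

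No subunit of the PDH complex passed the test in the fit of all samples. PDHA1 (chrX:19362011-19379836, plus strand) encodes the catalytic subunit that the kinases phosphorylate. It was at 162, 161 and 147 CPM in WT and 146, 150 and 165 CPM in METTL3-KO samples. The samples of both groups cover the same range, and the log2 fold change was -0.03 (SE 0.0764, 95% interval -0.19 to 0.14, edgeR adjusted p = 0.839). Without the third replicate of both groups PDHA1 passed the test in the lower direction (log2 fold change -0.13, edgeR adjusted p = 0.0133), and its sign turned when the first or second WT sample or the first METTL3-KO sample was left out, to at most 0.01. The interval leaves room for a fall by 12.5% or a rise by 10.3%. PDHB, the partner of PDHA1 in the same enzyme, had a log2 fold change of 0.03 (SE 0.105, edgeR adjusted p = 0.875). The core acetyltransferase DLAT was at -0.06 and the shared dehydrogenase DLD at 0.03. PDHX, which anchors DLD to the core, was at 56.4 ± 0.61 CPM in WT and 63.3 ± 1.88 CPM in METTL3-KO samples (log2 fold change 0.17, edgeR adjusted p = 0.0998). At an unadjusted p under 0.05, 1 of the 5 tested subunits (PDHX) was higher and 0 were lower, and DESeq2 called 0.

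The 4 PDH kinases all had lower mean levels in METTL3-KO samples, with log2 fold changes from -0.61 to -0.28 and a median of -0.47. Of the 4, 1 passed the test, where 13.2% of all tested genes fell. PDK2 (chr17:48172101-48189516, plus strand) is the most widely expressed of the kinases. It was at 35.6, 35.2 and 33.7 CPM in WT and at 23.0, 22.0 and 23.4 CPM in METTL3-KO samples, from 484 to 977 counts. The samples lay close together within each group and far apart between them. PDK2 fell by 0.61 on the log2 scale, or by 34.6% (SE 0.0777, 95% interval -0.78 to -0.44, edgeR adjusted p = 0.000144). It passed in each of the 14 alternative settings. Leaving out 1 sample gave -0.63 to -0.58, and leaving out the third replicate of both groups gave -0.65. PDK2 shares 2113 of its 5471 annotated exonic bases with SAMD14 on the opposite strand, whose own counts also fell (log2 fold change -0.46, SE 0.143, edgeR adjusted p = 0.0338). The strand setting of the counting is not given in the sources used here, so reads of the shared bases cannot be assigned beyond doubt. SAMD14 held 784 counts over all 6 samples, and the part of the overlap in the PDK2 values was not tested.

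PDK1 (chr2:173420101-173473397, plus strand), a kinase known to be induced by hypoxia, was the least even of the 4. It was at 43.5, 46.3 and 61.0 CPM in WT and at 35.9, 47.5 and 26.4 CPM in METTL3-KO samples. The third replicates were the highest of the WT and the lowest of the METTL3-KO samples, and the second METTL3-KO sample exceeded the first and second WT samples. The log2 fold change was -0.46 (SE 0.181, 95% interval -0.85 to -0.06) and did not pass the test (edgeR adjusted p = 0.0848). Without the third replicate of both groups it was -0.12 (edgeR adjusted p = 0.191). Leaving out the third WT sample gave -0.29, leaving out the third METTL3-KO sample gave -0.27, and leaving out the second METTL3-KO sample gave -0.68 (edgeR adjusted p = 0.0189).

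The canonical PDK1 transcript is 14072 bases long, longer than those of 99.1% of the tested genes with a transcript, and its GC content is 39.5%. A fit of each sample's deviations on transcript length and GC content gave PDK1 a log2 shift of -0.18, -0.19 and 0.33 in the WT samples and of 0.12, 0.11 and -0.18 in the METTL3-KO samples. The third WT sample thus had the sign of the first and second METTL3-KO samples, and the third METTL3-KO sample that of the first and second WT samples. With these shifts removed, PDK1 was at 49.4, 52.7 and 48.6 CPM in WT and at 33.0, 44.2 and 30.1 CPM in METTL3-KO samples. The groups then no longer overlapped, and PDK1 passed the test with a log2 fold change of -0.49 (edgeR adjusted p = 0.00226). The other kinases have shorter canonical transcripts, of 1741 to 3601 bases, and shifts of at most 0.10 in size.

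**Figure D2:**
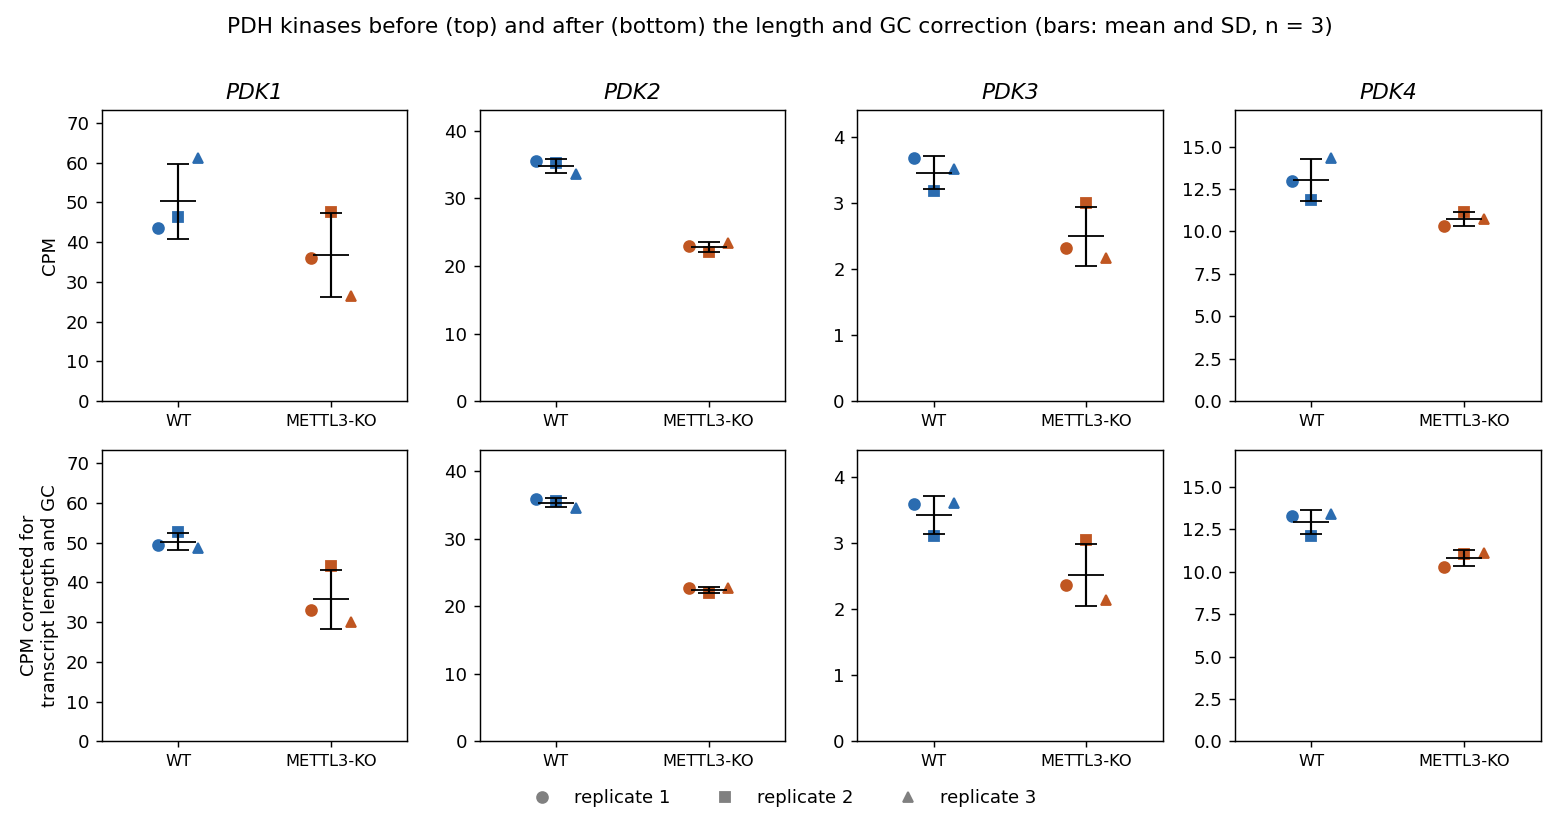
CPM of the 4 PDH kinases in each sample as measured (top) and after correction for transcript length and GC content (bottom), on linear axes from 0; point shapes mark replicate numbers and bars give the mean and SD of 3 samples. The correction narrows the range of the WT samples of PDK1 from 43.5 to 61.0 CPM to 48.6 to 52.7 CPM, and leaves PDK2, PDK3 and PDK4 near their measured values.

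PDK3 (chrX:24483361-24568583, plus strand) was the lowest of the 10 genes, with 51 to 101 counts per sample. It was at 3.679, 3.185 and 3.517 CPM in WT and 2.322, 3.003 and 2.168 CPM in METTL3-KO samples. The groups did not overlap, but the second METTL3-KO sample came close to the second WT sample. The log2 fold change of -0.48 (SE 0.17, 95% interval -0.85 to -0.11) did not pass the test (edgeR adjusted p = 0.0567). It passed without that METTL3-KO sample (-0.62, edgeR adjusted p = 0.0408) and was -0.40 without the third replicate of both groups (edgeR adjusted p = 0.0791).

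PDK4 (chr7:95212811-95225828, minus strand), the kinase known to be induced by fasting and fatty acids, was at 12.97, 11.86 and 14.30 CPM in WT and 10.32, 11.15 and 10.71 CPM in METTL3-KO samples. Each METTL3-KO sample lay below each WT sample. The log2 fold change was -0.28 (SE 0.103, 95% interval -0.51 to -0.06, edgeR adjusted p = 0.0635), and it passed with the length and GC correction (-0.26, edgeR adjusted p = 0.0374). It was -0.22 without the third replicate of both groups (edgeR adjusted p = 0.0753).

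All 4 kinases carry GGACT in the coding part of their first exon. PDK1 has 3 such words there, and the one whose window is most like that of PDK4 was taken. Distances from the start codon were not compared. PDK1 holds 11 of these words in all and PDK2 holds 7, of which 5 are in the 3′UTR, while PDK3 and PDK4 hold no other than the one shown. The windows are printed because the kinases differ in change and in number of words but all have a word in this exon, with the word in capitals.
PDK1, chr2:173421067-173421071: agcagttcctGGACTtcggatcagt
PDK2, chr17:48172910-48172914: agcagtttctGGACTtcggatccag
PDK3, chrX:24483671-24483675: aacaattcctGGACTtcgggagaga
PDK4, chr7:95225479-95225483: agcagctactGGACTttggttcaga
The coordinates are those of the word. Over the 25 bases of the window, PDK1 and PDK2 are the most alike, with 21 bases the same, and PDK2 and PDK3 the least, with 16.

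Of the 3 PDH phosphatase genes, 1 fell, beside 13.2% of all tested genes. PDP1 and PDP2 encode the catalytic subunits, and PDPR encodes the regulatory subunit that restrains PDP1. PDP1 was at 17.2 ± 1.41 CPM in WT and 19.4 ± 0.874 CPM in METTL3-KO samples (log2 fold change 0.17, edgeR adjusted p = 0.196). PDP2 was at 14.5 ± 4.06 CPM and 14.9 ± 2.54 CPM (log2 fold change 0.05, edgeR adjusted p = 0.867). For PDP2 the third WT sample was the highest and the third METTL3-KO sample was below the other METTL3-KO samples, as for PDK1. PDPR fell, from 35.4, 31.4 and 57.0 CPM in WT to 23.3, 23.2 and 15.8 CPM in METTL3-KO samples (log2 fold change -0.99, SE 0.205, edgeR adjusted p = 0.00373). As for PDK1, the third replicate was the highest of the WT and the lowest of the METTL3-KO samples, and the log2 fold change was -0.53 without the third replicate of both groups. It also has a near-identical copy in the genome, so its counts are uncertain.

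The summed counts of the 4 kinases were set against those of both catalytic phosphatases within each sample. The ratio was 3.41, 3.32 and 2.96 in WT and 1.95, 2.33 and 2.06 in METTL3-KO samples. The groups did not overlap, and the mean log2 difference was -0.61 (two-sided exact permutation p = 0.1, 0.2 after adjustment over 4 ratios). The smallest p that 3 samples against 3 allow is 0.1, so no ratio could pass the threshold. The difference was -0.66 without the third replicate of both groups.

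The lactate carriers differed from each other. SLC16A1 (chr1:113454469-113500215, minus strand) encodes MCT1, which moves lactate in or out of the cell. It was at 118, 119 and 123 CPM in WT and at 112, 111 and 106 CPM in METTL3-KO samples. The groups were narrowly separate, but the log2 fold change of -0.13 did not pass the test (SE 0.0679, 95% interval -0.28 to 0.02, edgeR adjusted p = 0.18), and it was -0.09 without the third replicate of both groups (edgeR adjusted p = 0.1).

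SLC16A3 (chr17:80175810-80219005, plus strand) encodes MCT4, the export carrier of highly glycolytic cells. It was at 103, 109 and 102 CPM in WT and at 116, 122 and 122 CPM in METTL3-KO samples. Every METTL3-KO sample lay above every WT sample, which makes it the one gene of the 10 with separate groups in that direction. The log2 fold change was 0.20 (SE 0.069, 95% interval 0.04 to 0.35) and missed the threshold (edgeR adjusted p = 0.0561). It passed with DESeq2 (adjusted p = 0.0393), without the third WT sample (edgeR adjusted p = 0.0384) and without the third replicate of both groups (0.16, edgeR adjusted p = 0.00343). SLC16A3 shares 482 of its 9236 exonic bases with CSNK1D on the opposite strand, which held 25305 counts over the 6 samples and had a log2 fold change of -0.15 (edgeR adjusted p = 0.162).

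Within each sample, the ratio of SLC16A3 to SLC16A1 counts was 0.877, 0.913 and 0.824 in WT and 1.04, 1.09 and 1.15 in METTL3-KO samples. The groups did not overlap, and the mean log2 difference was 0.33 (two-sided exact permutation p = 0.1, the smallest possible here, and 0.2 after adjustment over 4 ratios). It stayed between 0.29 and 0.37 when 1 sample was left out, and was 0.25 without the third replicate of both groups. BSG, the chaperone that brings both carriers to the plasma membrane, was at 417 ± 40.0 CPM in WT and 410 ± 32.6 CPM in METTL3-KO samples (log2 fold change -0.03, edgeR adjusted p = 0.853). Of the 8 genes on the list of monocarboxylate carriers and chaperones, 5 were tested with 0 called in either direction. With no adjustment, 2 of the 5 had a p under 0.05 in the higher direction and 0 in the lower, and DESeq2 called SLC16A3.

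MPC1 (chr6:166778407-166796501, minus strand) encodes 1 subunit of the mitochondrial pyruvate carrier, which works as a pair with MPC2. It was at 16.5, 16.1 and 15.4 CPM in WT and at 16.4, 15.4 and 17.3 CPM in METTL3-KO samples. The groups overlap, with a log2 fold change of 0.03 (SE 0.0899, 95% interval -0.17 to 0.22, edgeR adjusted p = 0.848), whose sign turned without the third METTL3-KO sample (-0.01) and without the third replicate of both groups (-0.04). MPC2 was at 20.2 ± 2.72 CPM in WT and 17.5 ± 3.14 CPM in METTL3-KO samples (log2 fold change -0.21, SE 0.135, edgeR adjusted p = 0.279). The ratio of MPC1 to MPC2 counts was 0.740, 0.759 and 0.896 in WT and 0.998, 1.02 and 0.820 in METTL3-KO samples, which overlap (mean log2 difference 0.24, two-sided exact permutation p = 0.2, 0.267 after adjustment over 4 ratios). The difference was 0.43 without the third replicate of both groups.

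**Figure D3:**
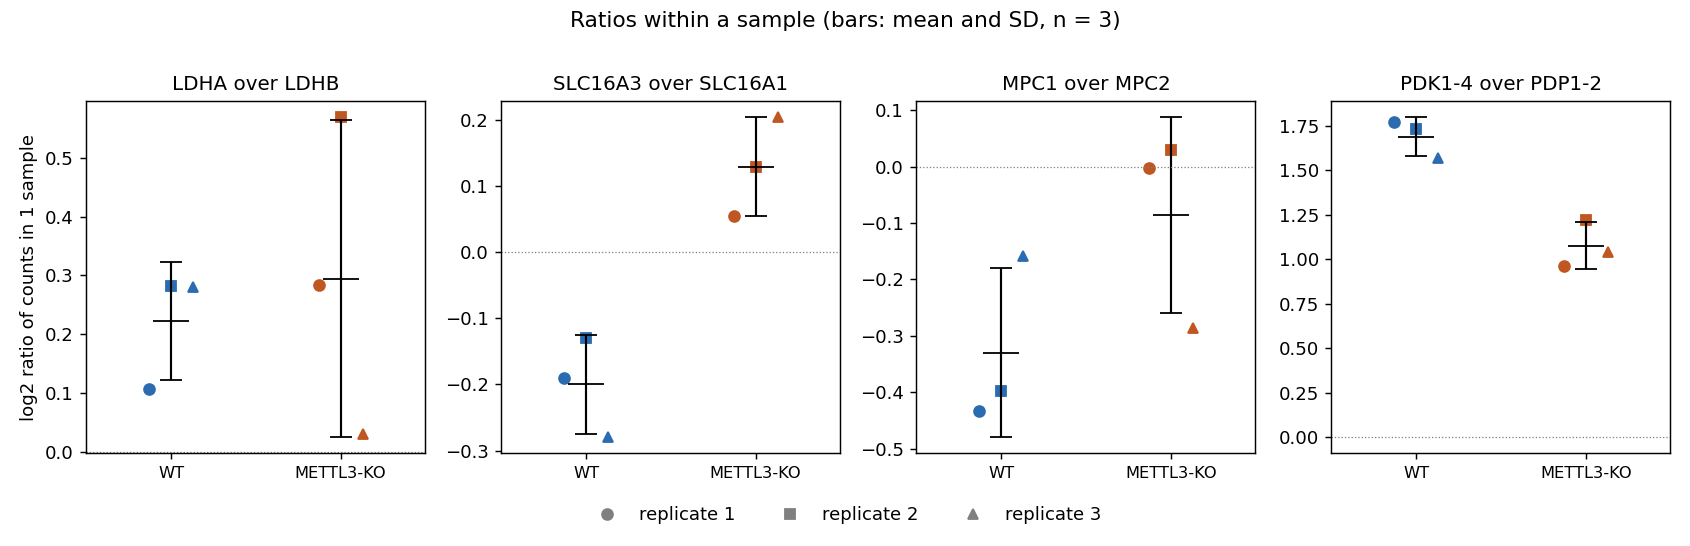
Log2 ratio of the counts of gene pairs or sums within each sample, by group, with bars for the mean and SD of 3 samples and a dotted line at a ratio of 1. The METTL3-KO points lie above the WT points for SLC16A3 over SLC16A1, with ratios of 1.04 to 1.15 against 0.824 to 0.913, and below them for PDK1-4 over PDP1-2, with ratios of 1.95 to 2.33 against 2.96 to 3.41; for LDHA over LDHB and MPC1 over MPC2 the groups overlap.

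**Figure D4:**
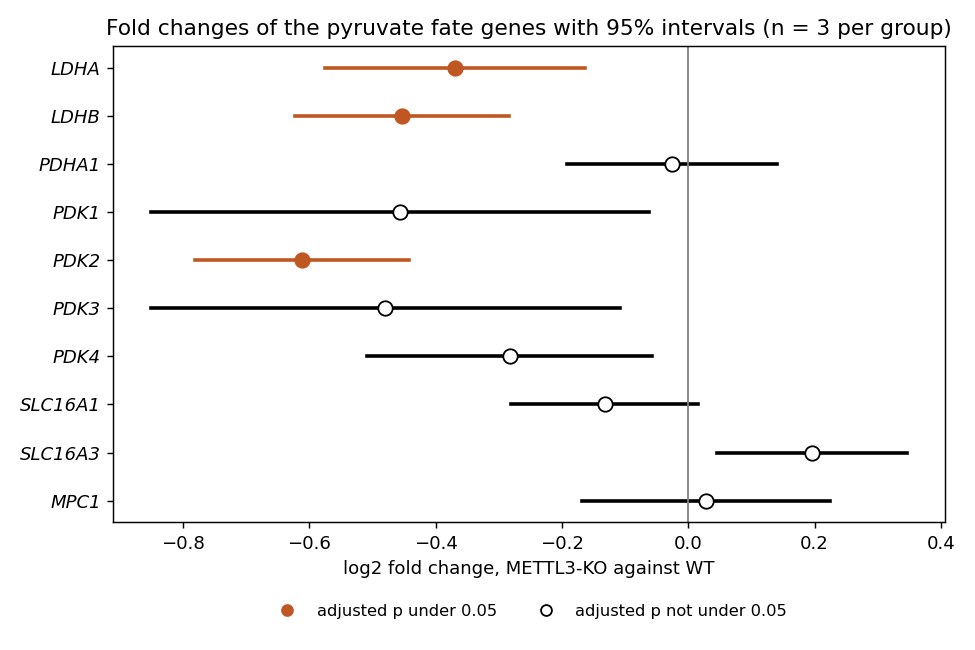
Log2 fold change of each gene, METTL3-KO against WT, with its 95% interval from edgeR's quasi-likelihood fit; filled points have an adjusted p under 0.05. LDHA (-0.37), LDHB (-0.45) and PDK2 (-0.61) are the filled points, and the intervals of PDK1 (-0.85 to -0.06) and PDK3 (-0.85 to -0.11) are the widest.

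Levels of different genes were compared as CPM per kilobase of length, with the union of annotated exons as the length. In the WT samples LDHB was highest at 337 ± 29.0 CPM per kilobase, followed by LDHA at 194 ± 6.93. Next came PDHA1 at 31.6 ± 1.75, SLC16A1 at 18.9 ± 0.447 and SLC16A3 at 11.3 ± 0.406. MPC1 at 10.4 ± 0.372 and PDK2 at 6.36 ± 0.186 followed, and the last were PDK1 at 3.39 ± 0.635, PDK4 at 2.87 ± 0.269 and PDK3 at 0.198 ± 0.0144. PDK1 and PDK4 overlapped in their samples, and no other neighbours in this order did. The METTL3-KO samples had the same order, with PDK1 and PDK4 again overlapping, from LDHB at 246 ± 11.5 to PDK3 at 0.143 ± 0.0254.

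The length chosen changes part of this order. With the canonical transcript as the length, 6 of the 10 genes kept their place in the WT order. SLC16A3 then stood above SLC16A1 in the WT samples, at 40.3 ± 1.44 against 32.0 ± 0.756 CPM per kilobase. In the METTL3-KO samples it reached 46.1 ± 1.26 and overlapped PDHA1 at 46.0 ± 2.92. PDK3 was at 1.99 ± 0.145 in the WT samples on this scale and stayed last. The length of PDK3 is the least certain, with 17456 bases over all its annotated exons and 1741 bases in its canonical transcript.

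**Figure D5:**
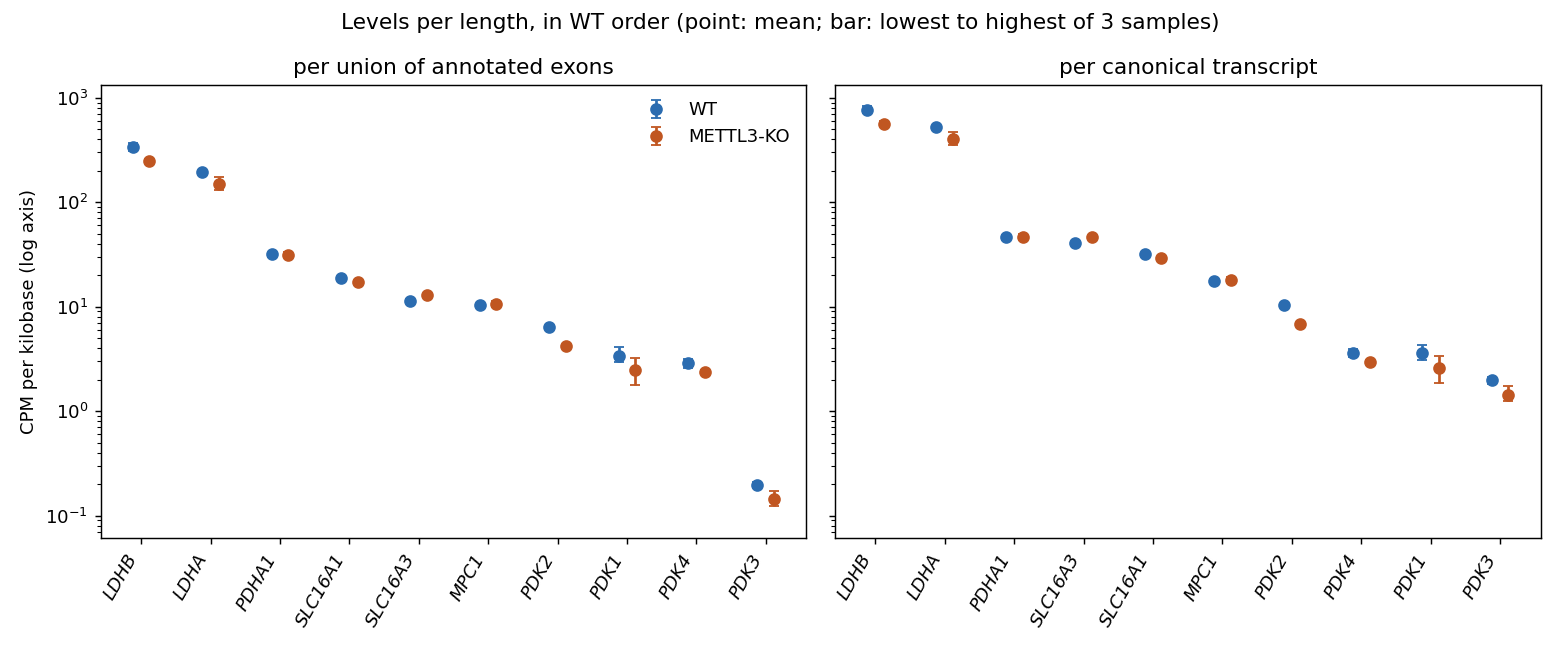
Level of each gene in CPM per kilobase on a log axis, by group, with length taken as the union of annotated exons (left) or the canonical transcript (right); points are means and bars run from the lowest to the highest of 3 samples. LDHB and LDHA lie above every other gene in both panels, and PDK3 moves from 0.198 to 1.99 in WT when the canonical length is used.

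Within the kinase family, PDK2 made up the largest share of the summed level per canonical transcript length, at 53.1% ± 3.38 in WT and 49.3% ± 4.51 in METTL3-KO samples. PDK4 made up 18.5% ± 1.04 and 21.6% ± 1.01, PDK1 18.2% ± 2.78 and 18.7% ± 4.26, and PDK3 10.2% ± 0.64 and 10.4% ± 1.17. With the union of annotated exons as the length, PDK2 made up 49.8% and 45.8%, PDK1 26.3% and 26.7%, PDK4 22.4% and 25.9%, and PDK3 1.55% and 1.56%, so the share of PDK3 and the order of PDK1 and PDK4 depend on the length. The canonical shares of PDK2 overlapped between the groups, at 49.2% to 55.4% in WT and 44.4% to 53.3% in METTL3-KO samples. Of both lactate carriers together, SLC16A3 made up 55.7% ± 1.29 in WT and 61.2% ± 1.23 in METTL3-KO samples per canonical transcript length, 37.4% ± 1.22 and 42.9% ± 1.27 per union of exons, and 44.1% ± 1.28 and 49.8% ± 1.29 per longest transcript. Which carrier makes up the larger share thus depends on the length. The direction of the group difference cannot, since each scale divides the same counts by a fixed length per gene.

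The other genes of the pathway were taken from lists of pyruvate enzymes, PDH cofactors, carriers and transcription factors. Of 41 such genes that are not among the 10, 35 were tested, with a median log2 fold change of 0.05. Of these, 4 fell and 6 rose, beside 13.2% and 13.3% of all tested genes. Without the third WT sample 12 rose, where 3809 of all tested genes did. Without the first METTL3-KO sample 3 rose, where 2188 did. Without the third replicate of both groups 9 fell and 15 rose, where 4823 and 4555 of all tested genes did. Among the 7 tested other enzymes that make or use pyruvate, 2 fell and 1 rose, beside the same 13.2% and 13.3% of all tested genes. PKM, the pyruvate kinase that makes pyruvate in the last step of glycolysis, fell from 2454 ± 117 to 2039 ± 41.2 CPM (log2 fold change -0.27, edgeR adjusted p = 0.00897). Its adjusted p was above the threshold without the first WT, the second WT or the second METTL3-KO sample, at 0.0607, 0.0511 and 0.0577. PC, pyruvate carboxylase, which feeds pyruvate into the citric acid cycle as oxaloacetate, fell from 55.6 ± 3.25 to 43.6 ± 1.80 CPM (log2 fold change -0.35, edgeR adjusted p = 0.00539). ME1, the cytosolic malic enzyme that makes pyruvate from malate together with NADPH, rose from 34.0 ± 1.60 to 50.7 ± 4.37 CPM (log2 fold change 0.58, edgeR adjusted p = 0.000403).

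None of the 3 lipoylation genes, which attach the lipoyl cofactor of the PDH complex, passed the test. At an unadjusted p under 0.05, 1 of them was higher and 0 were lower, and DESeq2 called 0. Of the 11 transcription factors known to act on the 10 genes, 5 rose, beside 13.3% of all tested genes, but this count rests partly on narrow calls. ESRRA and FOXO1 were near the threshold (edgeR adjusted p = 0.0373 and 0.0489), which they missed in 4 and 6 of the alternative settings. In a fit that took account of replicate numbers, EPAS1, ESRRA and FOXO1 missed it (edgeR adjusted p = 0.0606, 0.137 and 0.164). PPARA and PPARD still passed in that fit (edgeR adjusted p = 0.00967 and 0.0092). PPARA, a receptor for fatty acids known to induce PDK4, rose (log2 fold change 0.69, edgeR adjusted p = 0.000544), as did PPARD (0.51, edgeR adjusted p = 0.000249). EPAS1, a hypoxia-inducible factor subunit, rose by 0.39 on the log2 scale (edgeR adjusted p = 0.0123), with 0.0568 without the first WT sample and 0.0636 without the first METTL3-KO sample. HIF1A, the other such subunit and the factor best known for inducing LDHA, PDK1 and SLC16A3, was at 76.3 ± 6.01 CPM in WT and 81.9 ± 6.16 CPM in METTL3-KO samples (log2 fold change 0.10, edgeR adjusted p = 0.413). HIF1A is named beside the rule for its bearing on these genes, after its value was seen. ESRRA and FOXO1 are named beside it too, for their part in the count of factors that rose.

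The promoters of the 10 genes were searched on both strands for ACGTG, the core of the word that hypoxia-inducible factors bind, which also forms part of the CACGTG word of MYC. RefSeq start sites on GRCh38.p14 matched 9 of the 10 genes with 17 windows from 250 bases before to 50 bases after a start. The word was in 5 windows, or 29.4%, and in 21.4% of all 35116 promoter windows. The genes with the word were LDHA, PDK1, PDK2, PDK3 and SLC16A3, of which LDHA and PDK2 fell. The match nearest to the start of each is printed because these genes moved in unlike ways, with the word or its reverse complement in capitals, in the direction of transcription. Each offset counts from the start site, where negative values lie before it.
LDHA, chr11:18394490-18394494, offset -73: tgggttcccgCACGTccgccggccc
PDK1, chr2:172556082-172556086, offset -8: ccacgtccctCACGTaccactcggc
PDK2, chr17:50095223-50095227, offset -128: gggggaagccACGTGccggggcgga
PDK3, chrX:24465225-24465229, offset -61: cgcgccgcgtACGTGcagcaaccga
SLC16A3, chr17:82228987-82228991, offset -55: tgcgcgggggACGTGccgcgccagc
A match describes the letters of the window and not a bound site. The LDHA window holds 5 matches in all when both strands are counted. Those at offsets -185 and -184 are a single CACGTG counted on both strands, as are those at -87 and -86, so the sites are fewer.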

How the data were processed

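The values are those of 6 RNA-seq samples of HCT116 cells, 3 WT and 3 METTL3-KO, grouped by the sample labels. Reads were aligned by the authors with TopHat 2.0.11 (hg19) and assigned to genes by htseq-count's union mode, which leaves out reads in more than 1 gene or place. The deposited values are these raw counts per gene symbol; the authors compared groups with DESeq2. The deposited tables name the groups NC and SiM3 and number the WT samples differently; the groups and numbers of the labels were used. Counters of unassigned reads stayed out of library sizes; reads outside genes were 6.03% to 9.08% of a sample's read pairs and reads with several places 13.4% to 14.7%.

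Genes needed at least 5 counts summed over the WT or over the METTL3-KO samples, the minimum the authors used. Groups were compared with the quasi-likelihood test of edgeR 4.0.16 (R 4.3.3) with TMM, two-sided, without a block, with Benjamini-Hochberg adjustment over 22452 genes. The SE is the log2 fold change divided by the square root of F. The common biological coefficient of variation was 0.0907; counts per sample ran from 51 for PDK3 to 32437 for LDHA among the 10 genes. Ratios were compared by exact permutation tests.

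Gene positions, lengths and GC content came from GENCODE on GRCh37, where 35793 symbols matched, and promoters from RefSeq on GRCh38.p14, with no coordinates converted. The length and GC correction used splines with 5 degrees of freedom fitted to genes above a mean log2 CPM of 3, of which 97.1% had both features; of all tested genes 77.0% had them, and the others were not corrected. The genes named are the 10, METTL3, their subunit partners, and up to 4 genes per list with an adjusted p under 0.05, largest changes first; 1 gene that this rule names is not reported here. The members and lists were chosen with earlier results of these data known. Alternatives were DESeq2 1.42.0, RLE normalization, other filters, the replicate block, the length and GC correction, leaving out samples, and other gene lengths, of which the canonical transcript was added after the data were seen.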

Additional observations from a re-analysis of the deposited data

How the results depend on the processing

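LDHB and PDK2 passed the threshold in each of their 14 alternatives and LDHA in 11. Leaving out each sample in turn gave log2 fold changes of -0.48 to -0.28 for LDHA, -0.076 to 0.012 for PDHA1, -0.68 to -0.27 for PDK1, -0.62 to -0.39 for PDK3, 0.18 to 0.24 for SLC16A3, and -0.0098 to 0.072 for MPC1. It gave 2 to 5 of the 10 genes lower and 0 to 1 higher, and 3 to 12 other pathway genes higher. Over all tested genes, the same fits gave 1976 to 3793 lower and 2188 to 3809 higher. The log2 difference for LDHA over LDHB was -0.066 to 0.20. The length and GC correction called PDK1 (-0.49), PDK4 (-0.26) and SLC16A3 (0.20), so that 5 of the 10 genes were lower and 1 higher, with 10 other pathway genes higher. Over all tested genes it called 3900 lower and 3646 higher. SLC16A3, the 1 gene higher, was also called with DESeq2 (0.20), RLE normalization (0.20) and filterByExpr (0.20). With every gene of at least 1 count, PDK1 was called (-0.45, edgeR adjusted p = 2.26e-05), in a fit whose prior degrees of freedom were infinite, so that all genes shared 1 trend of spread. Without the third replicate of both groups, PDHA1 (-0.13) and SLC16A3 (0.16, 1 gene higher) were called, MPC1 was at -0.040, other pathway genes numbered 9 lower and 15 higher, and all tested genes 4823 lower and 4555 higher, against 2959 and 2986. With the canonical transcript, 6 of the 10 genes kept their place by level. The cause of these changes was not tested.

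With the replicate number as a block, LDHA, LDHB and PDK2 kept their calls (edgeR adjusted p = 0.0387, 0.0208 and 0.00565), PKM (0.0932), PC (0.0529) and EPAS1 (0.0606) did not, and 2 other pathway genes were lower and 3 higher; over all genes 1719 were lower and 1810 higher. With the block and the correction PDK1 was at -0.51 (edgeR adjusted p = 0.00265). The numbers share no stated origin, and same-numbered samples deviated with correlations of -0.59, -0.39 and -0.78, so they were not taken as pairs.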
